A study of Mus musculus with 2 samples.

Results

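Glycolysis splits glucose into pyruvate, and cells short of oxygen turn pyruvate into lactate to keep the pathway running. Under low oxygen the prolyl hydroxylases of the EGLN family stop marking the transcription factors HIF1A and EPAS1 for destruction. HIF1A then activates genes for glucose transporters, nearly every glycolytic enzyme, and secreted factors such as VEGFA. Some targets feed back on the response, because EGLN3 and EGLN1 are themselves induced. HIF proteins are controlled mainly by their stability, so the level of Hif1a mRNA is not a measure of HIF activity.

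The glycolysis and hypoxia-responsive genes described here are a set of 37 genes chosen by name, 23 of glycolysis and its links to glucose uptake and lactate and 14 of the hypoxia response, out of 29924 genes with a named probe on the array. A member was represented by the brightest of the probes that carry its name in the array files. All 37 had such a probe, and it was well above background in all 4 channels and entered the test, so that no member was lost to the filter on dim probes. The full test covered 19347 genes.

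The samples were ureters of newborn (postnatal day 0) NMRI wild-type mice, explanted and kept for 18 h at the interface of air and medium on a permeable membrane. Explants received 10 µM cyclopamine, an inhibitor of SMO and thereby of SHH signaling, or only solvent, diluted 1 in 1000. The labels call the solvent DMF and the study's methods call it ethanol, and 1 label field names the WNT secretion inhibitor IWP-2 where the titles, the treatment fields and the protocol name cyclopamine. RNA was pooled over several ureters of a single sex, and each of 2 arrays set a cyclopamine pool against a solvent pool, both of that sex. Replicate 1 held female pools, with the control in the green and cyclopamine in the red channel. Replicate 2 held male pools with the dyes exchanged, so sex, dye orientation and replicate cannot be told apart. In such pools, fewer cells of a type and less RNA per cell cannot be told apart either. Values are log2 ratios of cyclopamine over control, given for replicate 1 and then replicate 2, and means are over n = 2 arrays. The processed intensity is the scanner software's brightness after background subtraction and dye balancing, and it is not on a common scale on both arrays. Its 75th percentile over control spots was 3338 on replicate 1 and 628 on replicate 2. Intensities of different probes are not compared as levels of expression. They serve to pick the brightest probe of a gene, to call probes bright or dim, and to sum marker lists, where the brightest probes weigh most.

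The tissue and the drug were checked first. Urothelial genes were bright, with Upk3a, a uroplakin of the urothelial surface, at control intensities of 90443 and 25932. Smooth muscle genes were bright as well, with Acta2 at 110827 and 41995. Of 7 known targets of SHH signaling 5 passed limma as lower in cyclopamine (Gli1, Ptch1, Hhip, Foxf1 and Foxl1). Gli1, the transcriptional effector that SHH signaling induces, had log2 ratios of -1.83 and -2.09 (adjusted p = 1.76e-08 in limma).

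None of the 37 members was among the genes called by limma, a linear model across all probes with an adjusted p limit of 0.05, in either direction. Over all genes tested, limma called 168 lower (0.868%) and 85 higher (0.439%). At an unadjusted p under 0.05, 0 members were lower (4.82% of all genes) and 2 were higher (4.24% of all genes), and these were Hif1a and Car12. Under the 9 other settings of limma that were tried, these unadjusted counts ranged from 0 to 3 lower and from 0 to 3 higher. The count of members called at the adjusted limit was also 0 in each direction under each of those 9 settings. From the authors' series table of fold changes, however, limma called 0 probes lower and 0 higher in all. With the 4 channels as separate samples it called 0 and 1. Under these settings a count of 0 members was close to fixed in advance. A filter modelled on that of the study, with a control intensity over 100 and a change of at least 1.5-fold on each array, held 0 members in either direction. It held 0.63% of genes over the intensity limit as lower and 0.213% as higher, and 33 members were over that limit. Ankrd37, Car9, Car12 and Slc2a3 were under it on at least 1 array. None of these counts shows that the members stayed at the same level. The median 95% interval of a member reached 0.45 on the log2 scale to each side of its mean, a factor of 1.37. For 14 members the interval lay within 1.5-fold in each direction, and for 35 it lay within 2-fold.

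**Figure D1:**
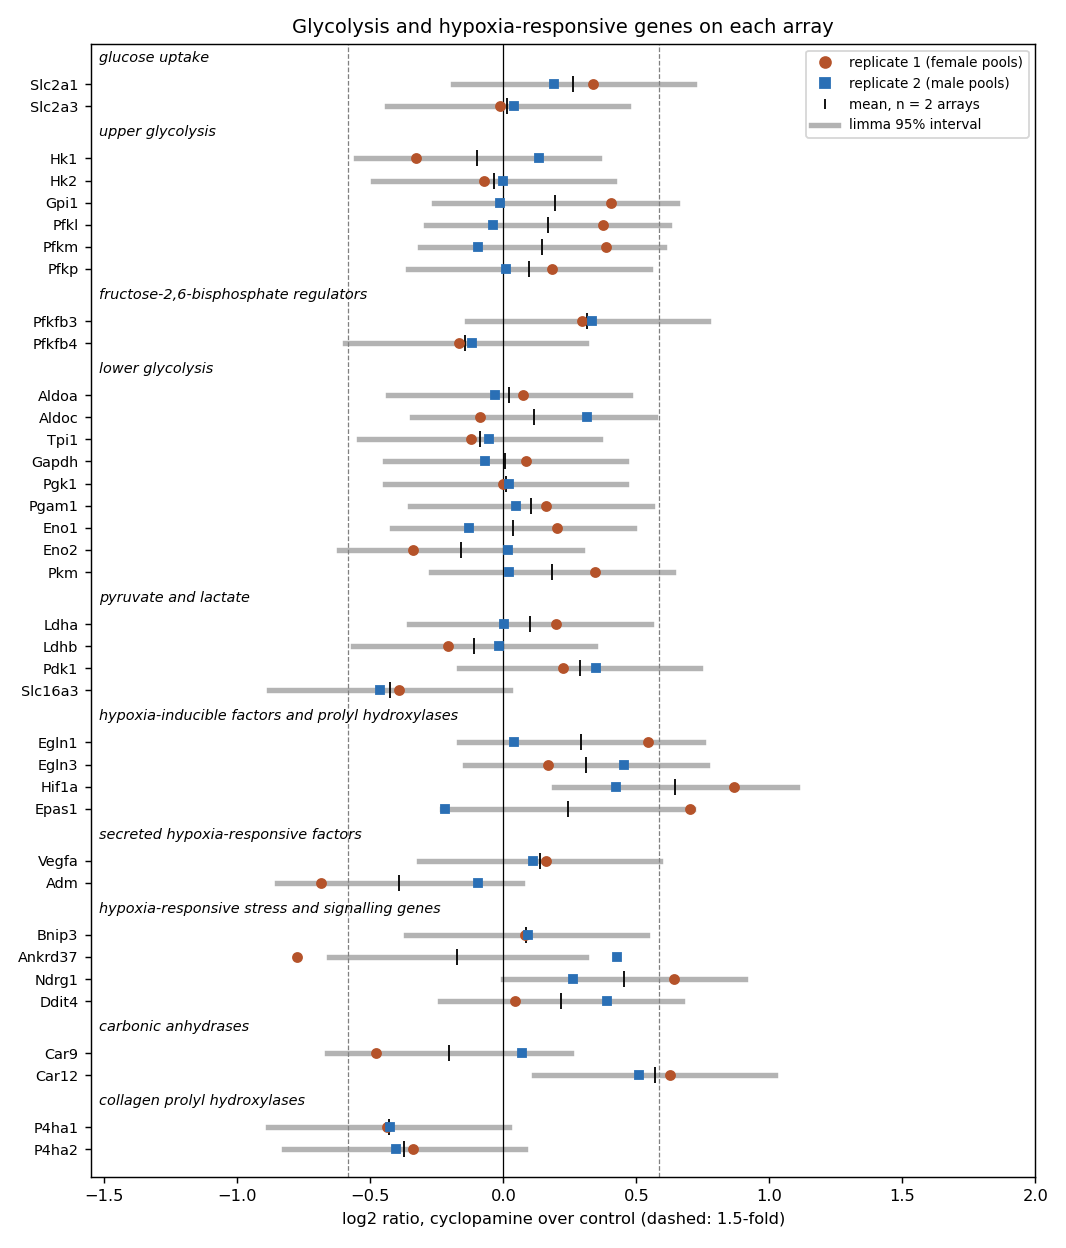
Log2 ratio of cyclopamine over control for the 37 members, grouped by role. Circles are replicate 1 (female pools), squares replicate 2 (male pools), ticks the mean of 2 arrays and grey bars the 95% interval from limma. Dashed lines mark 1.5-fold. The interval of 35 members spans 0, and those of Hif1a and Car12 lie above it.

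The median log2 ratio of the members was 0.10, against -0.01 over all genes tested. By array it was 0.09 on replicate 1 and 0.02 on replicate 2. On both arrays 15 members were higher in cyclopamine (40.5%, against 28.6% of all genes) and 8 were lower (21.6%, against 29.0%), while 14 had opposite signs (37.8%, against 42.4%). Across the members the ratios of both arrays had a Pearson r of 0.31 and a Spearman rho of 0.24 (n = 37 genes, which are not independent replicates), and across all genes tested 0.24 and 0.21. The 23 glycolysis members had a median of 0.04, and the 14 hypoxia-responsive members a median of 0.18. The hypoxia-responsive members were also more spread, with a standard deviation over genes of 0.55 and 0.32 on the arrays, against 0.25 and 0.17 for the glycolysis members and 0.45 and 0.30 for all genes tested. The brightness of the probes was not matched in this comparison. Ankrd37, Car9 and Car12 of the hypoxia-responsive members were under the intensity limit on at least 1 array, as was Slc2a3 of the glycolysis members.

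**Figure D2:**
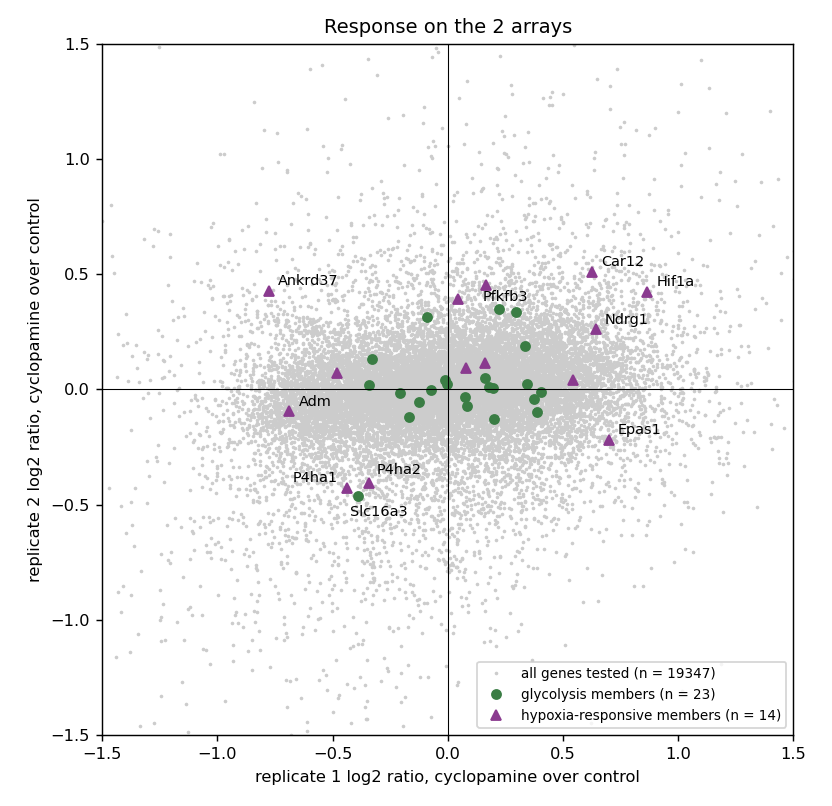
Log2 ratio of cyclopamine over control on replicate 2 against replicate 1 for 19347 genes tested (grey points, of which 119 lie outside the axes), 23 glycolysis members (circles) and 14 hypoxia-responsive members (triangles). Most glycolysis members lie near 0 on replicate 2, while Hif1a, Car12 and Ndrg1 lie to the upper right and P4ha1, P4ha2 and Slc16a3 to the lower left.

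In core glycolysis no gene was called. The enzymes of the lower pathway, from the aldolases to pyruvate kinase, had means between -0.16 and 0.18, with a median of 0.02 over 9 genes. By array their median was 0.07 and 0.02. Most are short genes, with a median length of 6795 bp, and with the trend of ratios with gene length removed the medians were 0.31 and 0.01 and that of the means 0.15. Pgk1, phosphoglycerate kinase, had intensities of 27890 in the control and 27846 in cyclopamine on replicate 1, and of 4752 and 4823 on replicate 2. Its mean was 0.01 ± 0.02 (SD), and the 95% interval of -0.44 to 0.46 allows no more than a factor of 1.38 upwards. Aldoa, the main aldolase, had a mean of 0.02 ± 0.08 (SD). Eno1, the widespread enolase, had 0.20 and -0.13. Tpi1, triose phosphate isomerase, was slightly lower on both arrays (-0.12 and -0.05), and Pgam1, phosphoglycerate mutase, slightly higher (0.16 and 0.05). Pkm, pyruvate kinase, had the highest mean of the 9, with 0.35 and 0.02, and Eno2, the enolase of neurons, the lowest, with -0.34 and 0.02. Aldoc, the aldolase of brain, had -0.09 and 0.32.

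Gapdh, the glyceraldehyde-3-phosphate dehydrogenase often used as a reference gene, was measured by 9 probes, with means between -0.07 and 0.07. The brightest of them (control 90211 and 23851, cyclopamine 95704 and 22710) is annotated in build mm9 at chr7:59003199-59003257, whereas the gene lies on chromosome 6. A second probe is on chromosome 7 too. Processed copies of Gapdh are known, and which of them each probe also detects was not tested. The 7 probes on chromosome 6 ranged from -0.05 to 0.07. No other probe of a member was annotated on a chromosome other than that of its gene.

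In the upper pathway 4 of 6 genes had ratios of opposite sign on the arrays. Gpi1, glucose-6-phosphate isomerase, had intensities of 46191 in the control and 61136 in cyclopamine on replicate 1, but 10984 and 10881 on replicate 2. The phosphofructokinases Pfkl (0.37 and -0.04) and Pfkm (0.39 and -0.10) had the same pattern of a positive ratio on replicate 1 alone. Pfkp, the platelet form, had 0.18 and 0.01, and a second and dimmer probe had -0.05 and -0.67. Hk2, the hexokinase that hypoxia induces, had -0.07 and 0.00. Hk1, the widespread hexokinase, had -0.33 and 0.13. Its second probe had 0.45 and -0.22 and its dimmest 0.26 and -0.16, so the probes of Hk1 disagreed in sign on each array. In all, 16 members had more than 1 probe tested, their probes differed in the sign of the mean in 6 (Hk1, Pfkp, Pfkfb4, Gapdh, Ldha and P4ha1), and none of the 65 member probes was called by limma.

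Neither glucose transporter was called. Slc2a1, which encodes the widespread transporter GLUT1, had 18693 in the control and 23594 in cyclopamine on replicate 1, and 4338 and 4944 on replicate 2. Cyclopamine was the brighter channel on both arrays, by a mean of 0.26 ± 0.10 (SD; adjusted p = 0.75 in limma). Slc2a3, which encodes GLUT3, had -0.01 and 0.04. Its mean of 0.01 turned negative under 3 other settings, reaching -0.08 with the trend of ratios with gene length removed.

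The regulators of fructose-2,6-bisphosphate, the strongest activator of phosphofructokinase, split. Pfkfb3, whose product mainly makes this activator and which HIF1A induces, was higher on both arrays, with 0.29 and 0.33 (mean 0.31 ± 0.03, SD; adjusted p = 0.70 in limma). It is a long gene, and with the trend of ratios with gene length removed its ratios were 0.09 and 0.33. A dimmer second probe had 1.06 and 0.31, with intensities of 131 in the control and 273 in cyclopamine on replicate 1, and of 36.7 and 45.5 on replicate 2. The mean of that probe was 0.69 (adjusted p = 0.18 in limma). Pfkfb4, of the same family, was lower by its brighter probe (-0.17 and -0.12) and had 0.58 and -0.03 by its dimmer probe.

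At the exit of the pathway, Slc16a3 stood apart from the enzymes. It encodes MCT4, the lactate exporter of glycolytic cells. Control and cyclopamine intensities were 2332 and 1778 on replicate 1, and 433 and 314 on replicate 2. The cyclopamine channel was the dimmer on both arrays, with log2 ratios of -0.39 and -0.46. With the trend of ratios with gene length removed they were -0.24 and -0.45. A second probe for the gene gave -0.40 and -0.46, but at chr11:120820023-120820082 (mm9) it overlaps most of the brighter probe and is not a separate measurement. Spots of the brighter probe on an array scattered with an SD of 0.03 on each array, so the ratio of each array was larger than its spot scatter, but limma did not call the gene (mean -0.43, 95% interval -0.88 to 0.03, adjusted p = 0.57). The brighter probe lies at chr11:120820030-120820089 (mm9). Ldha, which makes lactate from pyruvate, had 0.20 and 0.00, and its other probes had means of 0.02 and -0.03. Ldhb, the form that favours the reverse reaction, had -0.21 and -0.02. Pdk1, the kinase that holds pyruvate back from the mitochondria, had 1009 in the control and 1178 in cyclopamine on replicate 1, and 178 and 226 on replicate 2, higher on both arrays by a mean of 0.29 ± 0.09 (SD; adjusted p = 0.73).

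Of the regulators of the hypoxia response, Hif1a had the lowest p of all members. Hif1a encodes the oxygen-regulated subunit of HIF1. Its probe at chr12:75047269-75047329 (mm9) measured 11376 in the control and 20746 in cyclopamine on replicate 1, then 3973 and 5331 on replicate 2. Cyclopamine was the brighter channel on both arrays, with log2 ratios of 0.87 and 0.42. A much dimmer second probe had 0.88 and 0.30. The mean was 0.65 ± 0.31 (SD), a factor of 1.56, with a 95% interval of 0.19 to 1.10 and an adjusted p of 0.21 in limma. Over the 10 settings of limma the mean lay between 0.57 and 0.67 and the adjusted p between 0.12 and 0.98. With the trend of ratios with gene length removed, the ratios of Hif1a were 0.75 and 0.40.

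Epas1, which encodes HIF2A, a factor prominent in endothelium, had opposite ratios. Its intensities were 21625 without and 35145 with cyclopamine on replicate 1, and 5544 and 4765 on replicate 2, which gives 0.70 and -0.22. Its second probe had 0.14 and 0.03, and the dimmest 0.49 and -0.19. The 6 markers of endothelium had the same signs by their median, with 0.60 on replicate 1 and -0.15 on replicate 2, although only 3 of the 6 were themselves opposite. Their summed intensity went from 53832 in the control to 76130 in cyclopamine on replicate 1 and from 14114 to 12403 on replicate 2. None of the 6 was called by limma and none was at background. Kdr, a VEGF receptor among them, had 0.88 and -0.31. The 6 fibrocyte markers had these signs by their median as well, with 0.58 and -0.34, and 4 of the 6 were opposite. With the trend of ratios with gene length removed, Epas1 had 0.50 and -0.22. The medians of the endothelial markers were then 0.43 and -0.15. The part of endothelial cells in the values of Epas1 was not tested. Egln1, the main oxygen sensor among the prolyl hydroxylases, had 670 in the control and 977 in cyclopamine on replicate 1 and 146 and 151 on replicate 2, so that nearly all of its mean of 0.29 came from replicate 1. Egln3, a hydroxylase strongly induced by HIF, was higher on both arrays, with 0.17 and 0.45, and a second probe had 0.09 and 0.39 (adjusted p = 0.70 for the brighter probe).

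**Figure D3:**
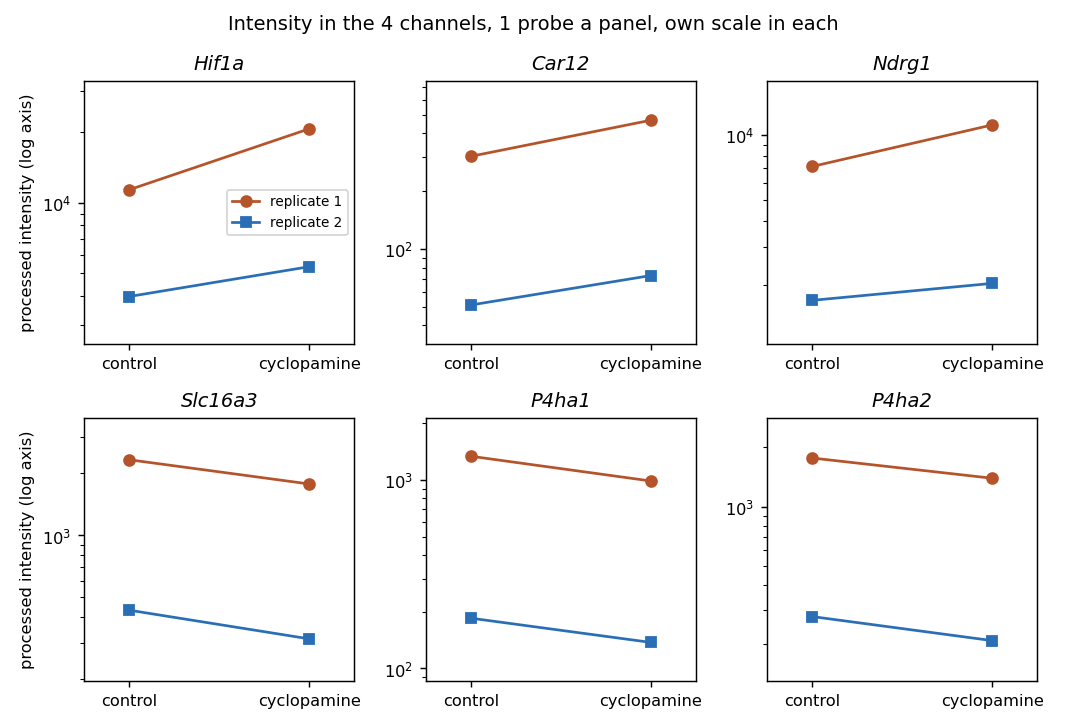
Processed intensity in the control and the cyclopamine channel of replicate 1 (circles) and replicate 2 (squares), on log axes with a scale of their own for each probe. Lines join the channels of an array. Hif1a, Car12 and Ndrg1 were brighter in cyclopamine on both arrays, and Slc16a3, P4ha1 and P4ha2 dimmer.

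The secreted factors had means of opposite sign. Vegfa, the main growth factor for blood vessels, had 9997 in the control and 11175 in cyclopamine on replicate 1, and 2111 and 2283 on replicate 2. It was higher on both arrays by a mean of 0.14 ± 0.03 (SD), and its second probe had 0.21 and 0.28 (adjusted p = 0.89 and 0.77). Adm, the vasodilator peptide adrenomedullin, had 3466 in the control and 2153 in cyclopamine on replicate 1, and 456 and 427 on replicate 2. Its log2 ratios were thus -0.69 and -0.10. Adm is a short gene, and with the trend of ratios with gene length removed its values were -0.35 and -0.05.

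Among stress and signaling genes of the hypoxia response, Ndrg1 was higher on both arrays. Ndrg1, a gene induced by hypoxia and by differentiation, had 7145 in the control and 11158 in cyclopamine on replicate 1, and 1702 and 2042 on replicate 2. Its mean was 0.45 ± 0.27 (SD), with a 95% interval of -0.003 to 0.91 and an adjusted p of 0.54 in limma. Ddit4, an inhibitor of mTORC1 that many stresses induce, had 0.04 and 0.39. It is a short gene, and with the length trend removed its ratios were 0.39 and 0.44. Bnip3, a mitophagy receptor and a classical HIF target, had 0.08 and 0.09, and its other probes had means of 0.03 and 0.44. The last of these, the dimmest, had 0.51 and 0.36. Ankrd37, another HIF target, was dim and had opposite ratios, with 149 in the control and 87.2 in cyclopamine on replicate 1 and 14.1 and 19.0 on replicate 2. Its spots scattered more than those of any other member on replicate 1, with an SD of 0.29.

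The carbonic anhydrases, membrane enzymes that help cells to handle acid, were dim. Car12 had 304 in the control and 469 in cyclopamine on replicate 1, and 51.0 and 72.7 on replicate 2. It was higher on both arrays, with 0.63 and 0.51. The mean of 0.57 ± 0.08 (SD) had a 95% interval of 0.11 to 1.02 and an adjusted p of 0.33 in limma. Car9, the form most closely tied to HIF1A, had -0.48 and 0.07, with intensities of 256 and 183 on replicate 1 and 34.6 and 36.3 on replicate 2.

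Both collagen prolyl hydroxylases had lower values in cyclopamine on both arrays. P4ha1 and P4ha2 encode the catalytic subunits of the enzymes that hydroxylate proline in collagen, and both are HIF targets. P4ha1 had 1336 in the control and 987 in cyclopamine on replicate 1, and 185 and 137 on replicate 2. P4ha2 had 1762 in the control and 1391 in cyclopamine on replicate 1, and 277 and 209 on replicate 2. The log2 ratios were -0.44 and -0.43 for P4ha1 and -0.34 and -0.41 for P4ha2. Neither was called by limma (adjusted p = 0.57 and 0.64). With the length trend removed the means were -0.51 and -0.41. A dimmer second probe for P4ha1 gave 0.39 and -0.02, so the direction of this gene depended on the probe. Col1a1 and Col3a1, collagen genes among the fibrocyte markers, had opposite ratios on the arrays, with 0.73 and -0.48 for Col1a1 and 0.87 and -0.45 for Col3a1. Signs were opposite in 42.4% of all genes tested, and the other collagen genes were not read.

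With the fold limit eased to 1.3 on each array, a limit chosen after the values were seen, the filter held 2 members as lower (Slc16a3 and P4ha1) and 1 as higher (Hif1a). Over all genes over the intensity limit it held 1.54% as lower and 1.24% as higher. P4ha2 missed that fold on replicate 1, and Car12 passed the fold but not the intensity limit.

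HIF binds DNA at the hypoxia response element, and ACGTG is a form of its core. Only this form, called the core here, was searched on both strands (ACGTG or CACGT). The search ran from 250 bases before to 50 bases after each start listed for a gene in a table of RefSeq promoters of build GRCm38.p6. The core was in 23 of the 34 members with a promoter in that table (67.6%) and in 21.8% of 27025 genes. Many members were chosen by name as known HIF targets, so their higher share is not a result of these data. The base composition of the promoters was not matched, and a match of these letters is a description, not a binding site. By response, 4 of 8 members lower on both arrays, 11 of 14 higher on both arrays and 8 of 12 with opposite signs had the core. The windows below are upstream of a listed start and read 5′ to 3′ in the direction of the gene, with the core in capitals. They are shown for the 3 genes with the lowest ratios on replicate 2, which were lower on replicate 1 as well, for Hif1a, and for Pgk1 and Ldha, whose means were 0.01 and 0.10.
P4ha1 (chr10:59323268-59323295, plus strand): tgtgacagagcgCACGTagcgagggctg
P4ha2 (chr11:54100834-54100862, plus strand): tgtgcatcgcatACGTGcagcgcgtggcg
Slc16a3 (chr11:120949028-120949056, plus strand): caggcagcggtgACGTGcgcgggggacgt
Hif1a (chr12:73907785-73907813, plus strand): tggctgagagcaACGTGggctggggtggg
Pgk1 (chrX:106186938-106186966, plus strand): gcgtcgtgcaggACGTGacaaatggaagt
Ldha (chr7:46845744-46845772, plus strand): cggcccagcctaCACGTgggttcccgcac
A window could be shown only for a gene that has the core, so these windows do not relate the core to the direction of the response.

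Related genes that are no members were read from lists. Of 22 other genes of glycolysis and gluconeogenesis tested, 0 were called by limma in either direction, and the median was 0.01. The largest mean was that of Eno3, the enolase of muscle, with -0.69 and -0.47 (adjusted p = 0.31). Of 35 other hypoxia-responsive genes and HIF regulators, limma called 0 as lower and 1 as higher, with a median of 0.08. The gene called was Lox, lysyl oxidase, which crosslinks collagen. Lox had 5121 in the control and 13058 in cyclopamine on replicate 1, and 1407 and 2240 on replicate 2, higher on both arrays by a mean of 1.01 ± 0.48 (SD; adjusted p = 0.0097). It was called under 7 of the 10 settings, and not after normexp background correction with an offset of 50, from the authors' series table or with the 4 channels as separate samples. Its second probe had 1.13 and 0.68. Of 7 pentose phosphate genes 0 were called in either direction, with a median of 0.14, and Rpia had the largest mean, with -0.51 and -0.18. Of 30 subunits of the respiratory chain and ATP synthase 0 were called in either direction, yet 18 were lower on both arrays (60.0%, against 29.0% of all genes) and 2 were higher. Their median was -0.39 on replicate 1 and -0.07 on replicate 2. They are short genes, with a median length of 8396 bp against 21348 bp for all genes tested, and with the length trend removed the medians were -0.25 and -0.06. The largest mean was that of Cox4i2, the cytochrome oxidase subunit tied to hypoxia, with -0.65 and -0.44 (adjusted p = 0.36).

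**Figure D4:**
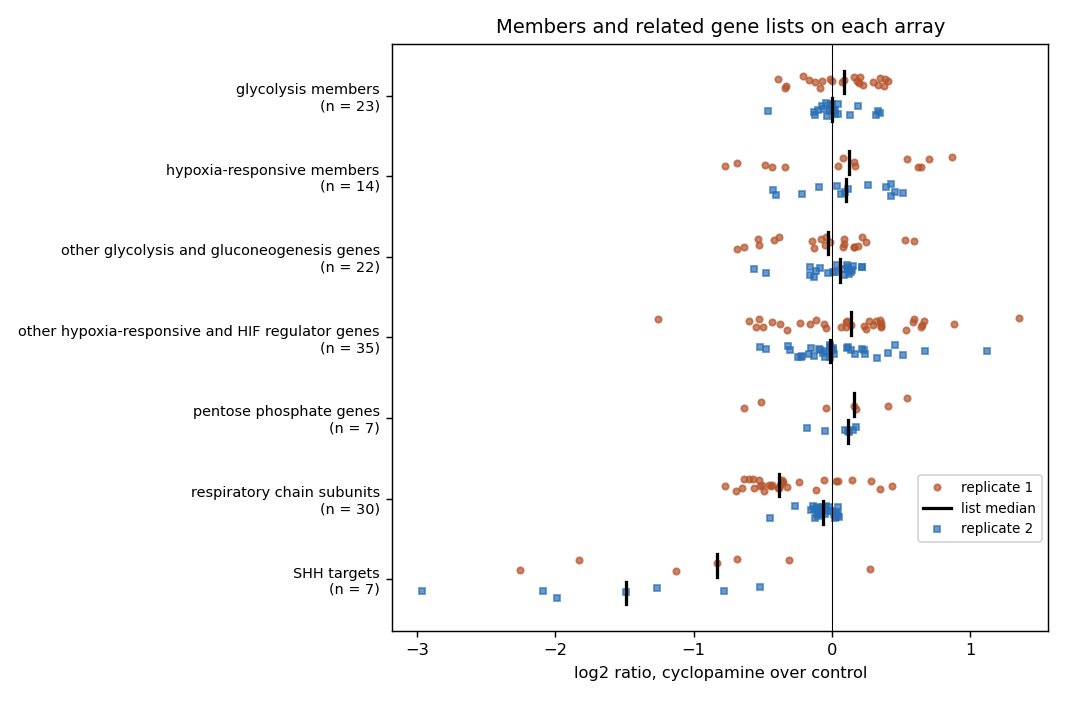
Log2 ratio of cyclopamine over control on replicate 1 (circles) and replicate 2 (squares) for each gene of the members and of related lists, with list medians as black bars. The points have a random vertical offset. Medians of the glycolysis members lie at 0.09 and 0.00, and those of the hypoxia-responsive members at 0.12 and 0.10. Those of the respiratory chain lie at -0.39 and -0.07, and those of SHH targets at -0.83 and -1.49.

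Ratios of replicate 1 were higher for longer genes. Over 16047 genes with a length the Spearman rho of ratio and length was 0.44 on replicate 1 and 0.03 on replicate 2, and over the 37 members it was 0.42 and 0.04. All points of a panel share their array. With the trend removed, the median of the members was 0.14, against 0.03 for all genes. Its part in the members' values on replicate 1 was not otherwise tested.

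**Figure D5:**
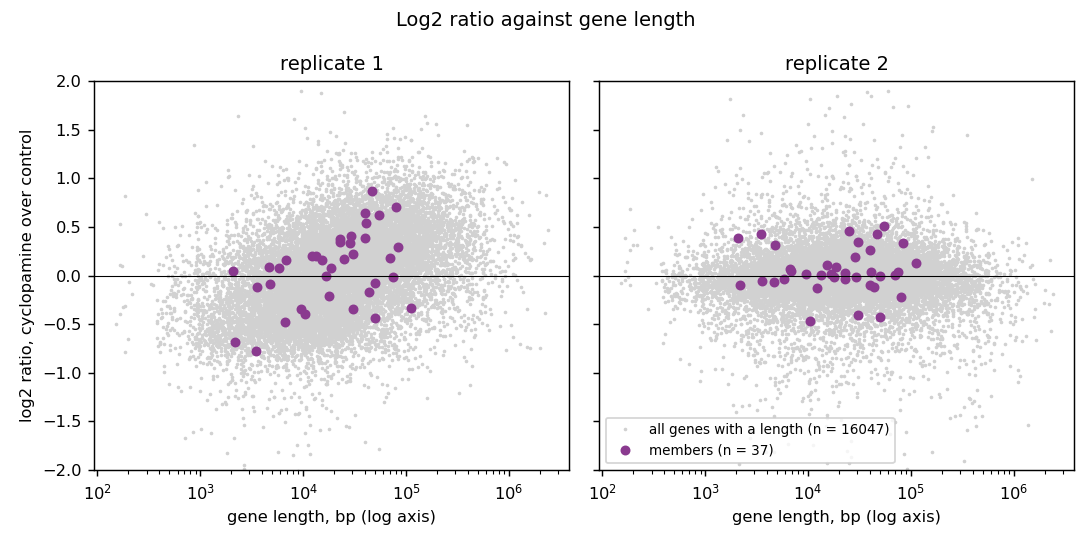
Log2 ratio of cyclopamine over control against gene length in bp (log axis) for each array, for 16047 genes with a length (grey points) and the 37 members (circles). On replicate 1 longer genes had higher ratios, with a Spearman rho of 0.42 over the members, and on replicate 2 rho is 0.04.

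Markers of the cells in the ureter wall are given beside these values, and their part in them was not tested. The 6 smooth muscle markers had medians of -0.12 and -0.62, with 5 of 6 lower on both arrays and Actg2 called by limma, and their summed intensity went from 322575 to 287126 and from 85980 to 51833. The 6 urothelial markers had medians of 0.15 and 0.11, with summed intensities of 303691 and 329922 and of 70246 and 74936. The 6 fibrocyte markers had 0.58 and -0.34, with sums of 280385 and 440741 and of 128643 and 105242, but Aldh1a2 among them had -0.62 and -0.65. Of leukocyte markers 5 of 6 were on the array, with medians of -0.24 and -0.23. The 3 erythroid markers tested had -0.33 and -0.16. The 5 markers of glia and neurons had -0.24 and 0.01. Of 5 kidney tubule markers Slc12a1, Slc34a1 and Umod were too dim to be tested, while Lrp2 had 1.23 and 0.28 and Aqp2 -0.06 and 0.07. The 4 adipocyte markers had -0.67 and -0.83, and Cfd was called as lower.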

How the data were processed

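Per the file headers, the deposited spot intensity values come from Agilent Feature Extraction 12.2.0.7 (the submitters' processing notes name 10.7.3.1), with background subtraction, detrending and a linear and LOWESS dye balance by the authors. The authors' deposited series table holds a score per probe, a signed fold change, used as an alternative, and the deposited log10 ratio of red over green was not used. Flags per spot for background and outliers (2.89% and 3.15% of spots) are deposited software output, and outlier and control spots were left out. The up to 4 spots of a probe were averaged as log2 values. limma 3.58.1 in R 4.3.3 fitted 25975 probes with at least 0.5 of spots well above background in a condition on both arrays, with Benjamini-Hochberg adjustment over all of them. The fit has 1 residual degree of freedom per probe, and a prior of 51.9 degrees of freedom sets most of each standard error, so the number of arrays limits the precision. Whether pools came from separate litters is not given in the sources used here.

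Every member is named, other probes of a member where signs differ or a result turns on them, and of other lists the called genes and the largest mean. Members and lists were chosen with earlier results of these data known. Probe positions are in build mm9, and gene lengths and promoters are from RefSeq (GRCm38.p6). The steps were tested on simulated data. Alternatives were the background correction, the series table, the length trend, flagged and dim spots, the prior, the probe rule, the filter limits and leaving out an array.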

Additional observations from a re-analysis of the deposited data

Results flagged for a closer look

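By their brightest probe, Ankrd37 and Epas1 had log2 ratios of opposite sign and at least 0.2 in size on the arrays of female pools (replicate 1) and male pools (replicate 2). Ankrd37 was dim, with 14.1 in the control and 19.0 in cyclopamine on replicate 2, and its spots had an SD of 0.29 on replicate 1. A second probe of Epas1 had 0.14 and 0.03, and its dimmest 0.49 and -0.19. For Ankrd37 replicate 1 minus replicate 2 was -1.20, and for Epas1 it was 0.92. With 1 array per sex these differences were not tested, and sex cannot be told apart from dye orientation and replicate.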

How the results depend on the processing

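The count of members called by limma was 0 in each direction under all 10 settings, and 432 of 444 single values of members kept their direction and side of the threshold or moved by less than the SD of the arrays. Another 6 moved by more when all probes of a gene were averaged. Many of the 432 could not have come out otherwise. With 2 arrays, leaving out an array always shifts a value by less than the SD, even where its sign changes. The 21 members with 1 probe cannot change when probes are averaged, and settings of the dim filter and the prior leave the ratio as it is. The 432 is therefore no measure of how stable the values are. Medians of members ranged from 0.0212 to 0.0853 with an array left out, and 0.141 with the length trend removed. The filter on the mean log2 ratio held 1 member as higher (Hif1a), and a limit of 1.3-fold, chosen after seeing the data, held 2 as lower and 1 as higher. With an array left out, the filter held 0 to 2 as lower and 0 to 4 as higher, all of them on replicate 1 (Adm and Ankrd37 lower, Ndrg1, Car12, Hif1a and Epas1 higher). Signs reversed under other limma settings for Slc2a3 (-0.00839 and -0.00437 after normexp with offsets of 50 and 10, -0.0839 with the length trend removed), Tpi1 (0.073 with the length trend removed) and Gapdh (-0.011 after normexp with offset 10, -0.0307 with the 4 channels as separate samples). Averaging all probes of a gene turned the sign of 4 members (Gapdh, Hk1, Pfkfb4 and Pfkp). The sign of the mean differed from that of replicate 2 alone in 11 members and from that of replicate 1 alone in 3, the 14 whose arrays had opposite signs. Leaving out an array gives no limma test, as no residual degree of freedom is left. The ratio within an array pairs its pools, and the 4 channels as separate samples are the fit without that pairing. Over all probes, limma called 200 as lower and 118 as higher, but 42 and 12 after normexp with offset 50, 123 and 52 with offset 10, 289 and 264 with the length trend removed, 0 and 0 from the series table, 261 and 216 without the filter on dim probes, and 0 and 1 with 4 channels as separate samples.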
